A study of Homo sapiens with 6 samples.

Results

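Autophagy is the route by which cells enclose cytoplasm in a double membrane and deliver it to lysosomes. The 38 genes described here encode its machinery and the regulators of TFEB, a transcription factor of lysosome and autophagy genes. They were taken by gene symbol from the 29435 rows of the deposited table, and each symbol had 1 row. They were grouped by step into initiation (5 genes), nucleation and membrane growth (10), conjugation (11), cargo receptors (4) and TFEB regulation (8). RNA was sequenced from cultures that carry the label HepG2, the name of a human hepatoblastoma-derived line, grown in medium with fetal bovine serum. For 4 h they received saikosaponin A at 20 µM, written SsA here, a plant saponin from the root of Bupleurum, or DMSO as vehicle. Each group had 3 libraries, numbered 1 to 3 by the labels. Separate cultures are not stated, and p-values here speak of the spread among these libraries, which may be technical.

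The ULK1 kinase complex starts an autophagosome, and a lipid kinase complex built on PIK3C3 and BECN1 then marks the membrane with the lipid PI3P. ATG2 proteins carry lipid to the growing membrane, and ubiquitin-like conjugation enzymes attach LC3 and GABARAP proteins to it, to which cargo receptors such as SQSTM1 bind. TFEB, TFE3 and MITF are held in the cytoplasm when the kinase mTORC1 is active at the lysosome. RRAGC and RRAGD are GTPases that bring them there, and FLCN with FNIP1 or FNIP2 acts on those GTPases.

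Total counts were 58955482 to 69567633 in the SsA libraries and 57768359 to 74912492 in the DMSO libraries. SsA replicate 1 and DMSO replicate 3 stood apart, with 18.8% and 14.9% of counts from mitochondrially encoded genes, against 6.19 to 8.28% in the other 4 libraries. None of the 8 hepatocyte markers with a row, among them APOA1, TF, FGB and HNF4A, reached a mean of 0.1 FPKM, and together they gave 7 to 25 counts in the SsA libraries and 13 to 27 in the DMSO libraries, so the liver identity of the label was not seen in these markers. Of 5 other epithelial markers with a row, KRT8 and KRT18 were above 1 FPKM on average, and CDH1, EPCAM and TP63 were below 0.1 FPKM. The mesenchymal markers VIM, ACTA2, COL1A1, COL3A1 and PDGFRB, all 5 with a row, were above 1 FPKM. The 5 mesenchymal markers together had 165 to 169 FPKM in the SsA libraries and 145 to 149 FPKM in the DMSO libraries. The 5 epithelial markers together had 637 to 800.5 FPKM with SsA and 526.5 to 702.3 FPKM with DMSO, with overlapping groups. The endothelial markers, all 3 with a row, together had 0.457 to 0.485 FPKM with SsA, lower than the 0.831 to 0.922 FPKM with DMSO. The part of these levels in the results was not tested. FPKM, the deposited level per gene length and sequencing depth, is used below for levels between genes. CPM, the count relative to a library size scaled by TMM, is used for SsA against DMSO.

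After SsA, 4 of 5 genes for starting the autophagosome were lower and 7 of 11 genes of the conjugation system were higher than with DMSO, on counts scaled by TMM, where 27.9% of all tested genes were lower and 25.9% higher. On the TPM scale (FPKM rescaled to 1 total in each library) 2 of the 5 passed as lower and 0 of the 11 as higher. Of all tested genes 21.4% were lower and 0.429% higher on that scale. With a correction for transcript length, described further on, 2 of the 5 passed as lower and 5 of the 11 as higher, against 15.3% and 15.7%. The kinase gene ULK1 fell 2.04-fold, its scaffold gene RB1CC1 1.82-fold and the lipid transfer gene ATG2A 2.25-fold. The conjugated genes GABARAP, GABARAPL2, GABARAPL1 and MAP1LC3B rose 1.54-fold, 1.46-fold, 1.35-fold and 1.22-fold. Among the regulators of TFEB, FNIP2, FNIP1 and FLCN fell 2.02-fold, 1.86-fold and 1.46-fold, where FNIP2 was tested only because its DMSO libraries reached 1 FPKM.

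Of the 38 genes, 36 had at least 1 FPKM in at least 3 of the 6 libraries and were tested. By edgeR's quasi-likelihood test, two-sided, at a Benjamini-Hochberg adjusted p below 0.05 over all 11427 tested genes, 9 rose and 12 fell. Of all tested genes 53.8% changed. Over all tested genes 25.9% rose and 27.9% fell, so the share of these genes that changed was near that background. The groups did not overlap in CPM for 10 of the 36 genes with SsA above DMSO and for 12 with SsA below, against 30.4% and 32.4% of all tested genes (62.8% either way). ULK1, ATG2A and FNIP2 fell at least 2-fold, as did 5.42% of all tested genes, and 0 of the 36 rose at least 2-fold, against 2%. Their median log2 fold change was -0.020, against 0.027 over all tested genes. FNIP2 passed the limit only through the DMSO libraries, so it had to differ to be tested, and 11 genes fell without it. TFEB and RRAGD were below 1 FPKM in every library and were not tested in this fit. The counts depend on the scaling: on the deposited FPKM scale, where the median of all tested genes was -0.11, 2 of the 36 rose and 14 fell by limma, against 8% and 32.6% of all tested genes. On the TPM scale, with a median of -0.31, 0 rose and 7 fell, against 0.429% and 21.4%. Without SsA replicate 1 and DMSO replicate 3, 11 rose and 15 fell, against 33.3% and 34.5%. RNA was measured in bulk, so fewer cells of a kind and less RNA per cell cannot be told apart.

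**Figure D1:**
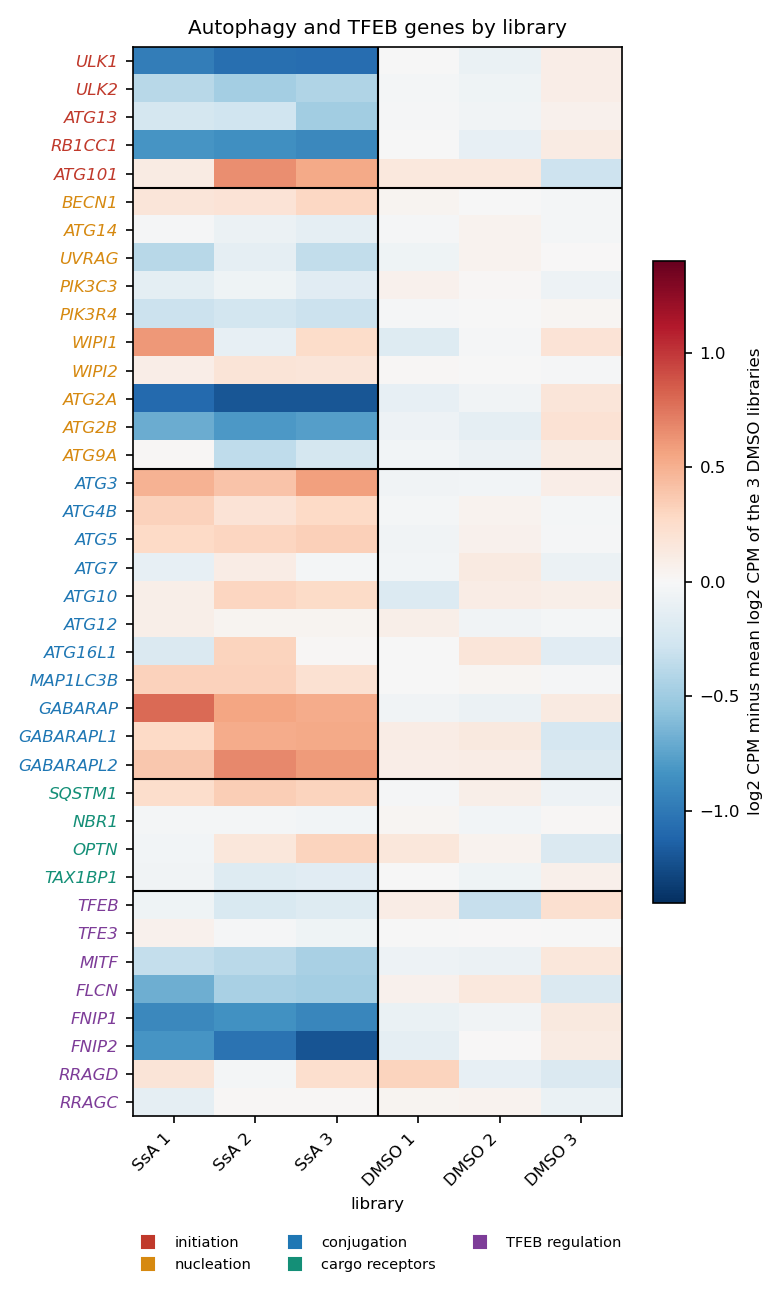
Heat map of the 38 genes (rows, by step, with symbols coloured by step) in the 6 libraries (columns, SsA left of DMSO), as log2 CPM minus the mean log2 CPM of the 3 DMSO libraries. ULK1, RB1CC1, ATG2A, ATG2B, FNIP1 and FNIP2 were low in each SsA library, and ATG3 and GABARAP were high in each.

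Of the 5 initiation genes 4 fell and 0 rose, against 27.9% and 25.9% of all tested genes. By TPM 2 fell, against 21.4%, and with the length correction 2 fell, against 15.3%, in both cases ULK1 and RB1CC1. ULK1 (ENSG00000177169, chromosome 12, 131894622 to 131923150, GRCh38), the serine/threonine kinase that starts the process, had 73.2, 69.1 and 68.2 CPM in SsA replicates 1, 2 and 3, against 143, 135 and 153 CPM in DMSO replicates 1, 2 and 3. Every SsA library was below every DMSO library by a wide margin, giving a log2 fold change of -1.03 ± 0.07 (SE, edgeR adjusted p = 1.10e-04). RB1CC1, which encodes FIP200, the large scaffold of the complex, had 64.7, 63.1 and 61.3 CPM in SsA replicates 1, 2 and 3, against 114, 106 and 124 CPM in DMSO replicates 1, 2 and 3. Its groups were as cleanly apart, at a log2 fold change of -0.86 ± 0.074 (SE, edgeR adjusted p = 2.17e-04).

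ULK2, the close relative of ULK1, fell less. It had 14.1, 13.2 and 13.8 CPM in the SsA libraries, against 18.1, 17.6 and 19.6 CPM in the DMSO libraries, so its groups were separate but near each other (log2 fold change -0.43 ± 0.089 SE, edgeR adjusted p = 0.00649). ATG13, the adaptor that links the kinase to the scaffold, had 72.6, 71.1 and 61.6 CPM in the SsA libraries, against 85.3, 83.3 and 90.1 CPM in the DMSO libraries, with a log2 fold change of -0.33 ± 0.081 (SE, edgeR adjusted p = 0.0121). Neither call was kept on the TPM scale (limma adjusted p = 0.0556 for ULK2 and 0.0594 for ATG13). ATG101, the partner of ATG13, went the other way in 2 of 3 SsA libraries. It had 38.4, 55.8 and 51.2 CPM in the SsA libraries, against 39.2, 39.2 and 28.9 CPM in the DMSO libraries, with SsA replicate 1 inside the DMSO range, and did not pass (log2 fold change 0.44 ± 0.17 SE, edgeR adjusted p = 0.0653). Without SsA replicate 1 and DMSO replicate 3 it passed as higher (edgeR adjusted p = 2.23e-04), and likewise without SsA replicate 1 alone (0.0148).

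In the nucleation and membrane growth group, 1 of 10 genes rose and 4 fell, against 25.9% and 27.9% of all tested genes. By TPM 0 rose and 2, ATG2A and ATG2B, fell, against 0.429% and 21.4%. With the length correction 3 rose and 1 fell, against 15.7% and 15.3%. Differences in the PI3-kinase complex were small. Its catalytic subunit PIK3C3, also called VPS34, had 34.8, 36.7 and 34.4 CPM in the SsA libraries, against 40, 38.8 and 36.5 CPM in the DMSO libraries, with groups that overlapped and a log2 fold change of -0.12 ± 0.068 (SE, edgeR adjusted p = 0.165). Without SsA replicate 1 and DMSO replicate 3 it passed as lower (0.0369). PIK3R4, its regulatory kinase-like subunit, had 47.4, 49 and 47.7 CPM in the SsA libraries, against 57.7, 58.5 and 59.6 CPM in the DMSO libraries, and it fell by a small amount (log2 fold change -0.29 ± 0.058 SE, edgeR adjusted p = 0.00602), a call lost on the TPM scale (limma adjusted p = 0.0933). BECN1, the subunit that BCL2 proteins bind, was slightly higher in each SsA library, at 51.7, 52.6 and 56.5 CPM in the SsA libraries, against 47.3, 45.9 and 45.1 CPM in the DMSO libraries. The log2 fold change of BECN1 was 0.22 ± 0.066 (SE; edgeR adjusted p = 0.0283), a call lost in the fit without SsA replicate 2 (0.0686) or 3 (0.101) or without DMSO replicate 1 (0.0666), 2 (0.0851) or 3 (0.0695). BECN1 had the opposite sign on the TPM scale and did not pass there.

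ATG14 and UVRAG encode alternative partners of BECN1, of which ATG14 directs the complex to forming autophagosomes. ATG14 averaged 35.1 ± 1.39 CPM with SsA and 37 ± 1.19 CPM with DMSO (SD, n = 3) and did not pass (edgeR adjusted p = 0.378). UVRAG averaged 23.8 ± 2.34 CPM with SsA and 29 ± 1.1 CPM with DMSO (SD, n = 3) and fell (log2 fold change -0.28 ± 0.092 SE, edgeR adjusted p = 0.0346). That call was lost without SsA replicate 1 (0.0793) or 3 (0.11), without DMSO replicate 1 (0.0583) or 2 (0.0888), on the TPM scale (limma, 0.122), and when no filter on FPKM was used (0.157).

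The largest fall among all 36 tested genes was that of ATG2A (ENSG00000110046, chromosome 11, 64894546 to 64917209), which encodes a lipid transfer protein that bridges the endoplasmic reticulum and the growing membrane. ATG2A had 18.2, 16.8 and 16.9 CPM in SsA replicates 1, 2 and 3, against 35.6, 37.3 and 43.4 CPM in DMSO replicates 1, 2 and 3, so each SsA library was at or below the level of 18.2 CPM while no DMSO library was under 35.6 CPM (log2 fold change -1.17 ± 0.10 SE, edgeR adjusted p = 1.93e-04). Its paralogue ATG2B had 31.3, 29 and 29.6 CPM in the SsA libraries, against 48, 46.3 and 58.1 CPM in the DMSO libraries, and it also fell, with a log2 fold change of -0.76 ± 0.10 (SE, edgeR adjusted p = 0.00101). ATG9A, the scramblase of the vesicles that seed the membrane, had 94.8, 73.6 and 79.5 CPM in the SsA libraries, against 91.8, 88.9 and 102 CPM in the DMSO libraries, where SsA replicate 1 lay within the DMSO range. It did not pass with all libraries (log2 fold change -0.19 ± 0.11 SE, edgeR adjusted p = 0.173), but passed as lower without SsA replicate 1 (0.0234). The PI3P-binding genes WIPI1 and WIPI2 averaged 12.9 ± 3.19 CPM with SsA and 10.7 ± 1.4 CPM with DMSO for WIPI1 and 77 ± 2.53 CPM with SsA and 69.4 ± 0.683 CPM with DMSO for WIPI2 (SD, n = 3), and neither passed (edgeR adjusted p = 0.289 and 0.061). WIPI2, which recruits ATG16L1, was higher in each SsA library than in any DMSO library and passed as higher without SsA replicate 1 (0.042).

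In the conjugation group 7 of 11 genes rose and 0 fell, against 25.9% and 27.9% of all tested genes, with a median log2 fold change of 0.29, against 0.027 over all tested genes. On the deposited FPKM scale 2 of these 11 genes passed as higher, against 8% of all tested genes. On the TPM scale 0 did, against 0.429%, and the group's median was -0.078, against -0.31 over all tested genes. GABARAP (ENSG00000170296, chromosome 17, 7240008 to 7242449), which encodes a small ubiquitin-like protein that is linked to membrane lipid, had 349.6, 297 and 290.0 CPM in SsA replicates 1, 2 and 3, against 195, 191 and 221 CPM in DMSO replicates 1, 2 and 3. The lowest SsA library was well above the highest DMSO library (log2 fold change 0.63 ± 0.10 SE, edgeR adjusted p = 0.00194). GABARAPL2 had 59.7, 73.5 and 69.8 CPM in the SsA libraries, against 49, 49.6 and 40.2 CPM in the DMSO libraries, with a log2 fold change of 0.55 ± 0.11 (SE, edgeR adjusted p = 0.00665). Both GABARAPL1 and GABARAPL2 were lowest within each group in SsA replicate 1 and DMSO replicate 3, the libraries of high mitochondrial share, whereas GABARAP was highest there. The part of that share in these values was not tested.

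GABARAPL1 had 146, 172 and 174 CPM in the SsA libraries, against 129, 132 and 102 CPM in the DMSO libraries, and it rose by 0.44 ± 0.12 in log2 (SE, edgeR adjusted p = 0.0188), a call lost without SsA replicate 2 (0.066) or 3 (0.0661). MAP1LC3B, which encodes the LC3 protein used as the standard marker of autophagosomes, had 116, 116 and 107 CPM in the SsA libraries, against 92.4, 94.4 and 91.3 CPM in the DMSO libraries. Its libraries lay close together within each group and did not overlap between them (log2 fold change 0.29 ± 0.059 SE, edgeR adjusted p = 0.00661), but its sign was opposite and did not pass on the TPM scale. The near-identical copies GABARAPL3 and MAP1LC3B2 held 0.0247% as many counts as GABARAPL1 and 2.05% as many as MAP1LC3B, and how reads shared with such copies were counted is not stated.

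The enzymes of conjugation split into those that rose and those that did not pass. ATG3, the E2-like enzyme that hands LC3 to the lipid, had 75.3, 70.6 and 80.2 CPM in the SsA libraries, against 51.8, 52.3 and 57.3 CPM in the DMSO libraries, with the largest rise of the enzymes (log2 fold change 0.49 ± 0.076 SE, edgeR adjusted p = 0.002). ATG5, which is joined to ATG12 to form the E3-like unit, had 50.2, 51 and 51.9 CPM in the SsA libraries, against 40.1, 43 and 41 CPM in the DMSO libraries, and it rose by 0.30 ± 0.063 (log2, SE, edgeR adjusted p = 0.00638). ATG4B, the protease that prepares LC3 and GABARAP proteins, had 33.2, 30.2 and 32 CPM in the SsA libraries, against 26, 27.3 and 26 CPM in the DMSO libraries, and it rose by 0.27 ± 0.071 (log2, SE, edgeR adjusted p = 0.0181). Leaving out DMSO replicate 1 (0.0789), DMSO replicate 3 (0.0568) or SsA replicate 3 (0.0596) ended the ATG4B call. ATG5 and ATG4B had the opposite sign on the TPM scale and did not pass there.

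For the other 4 conjugation genes the groups overlapped. The E1-like enzyme ATG7 averaged 25.4 ± 1.92 CPM with SsA and 25.6 ± 1.94 CPM with DMSO, and ATG12 averaged 30.1 ± 0.556 CPM with SsA and 29.1 ± 1.5 CPM with DMSO (SD, n = 3 each). The E2-like enzyme ATG10, which acts on ATG12, averaged 9.84 ± 0.777 CPM with SsA and 8.47 ± 0.922 CPM with DMSO, and ATG16L1, which places the E3-like unit on the membrane, averaged 26.9 ± 4.9 CPM with SsA and 25.9 ± 2.93 CPM with DMSO (SD, n = 3 each). Their log2 fold changes lay between -0.0097 for ATG7 and 0.22 for ATG10, and their edgeR adjusted p between 0.215 and 0.938. In ATG16L1 the SD within the SsA group was larger than the difference between the groups.

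**Figure D2:**
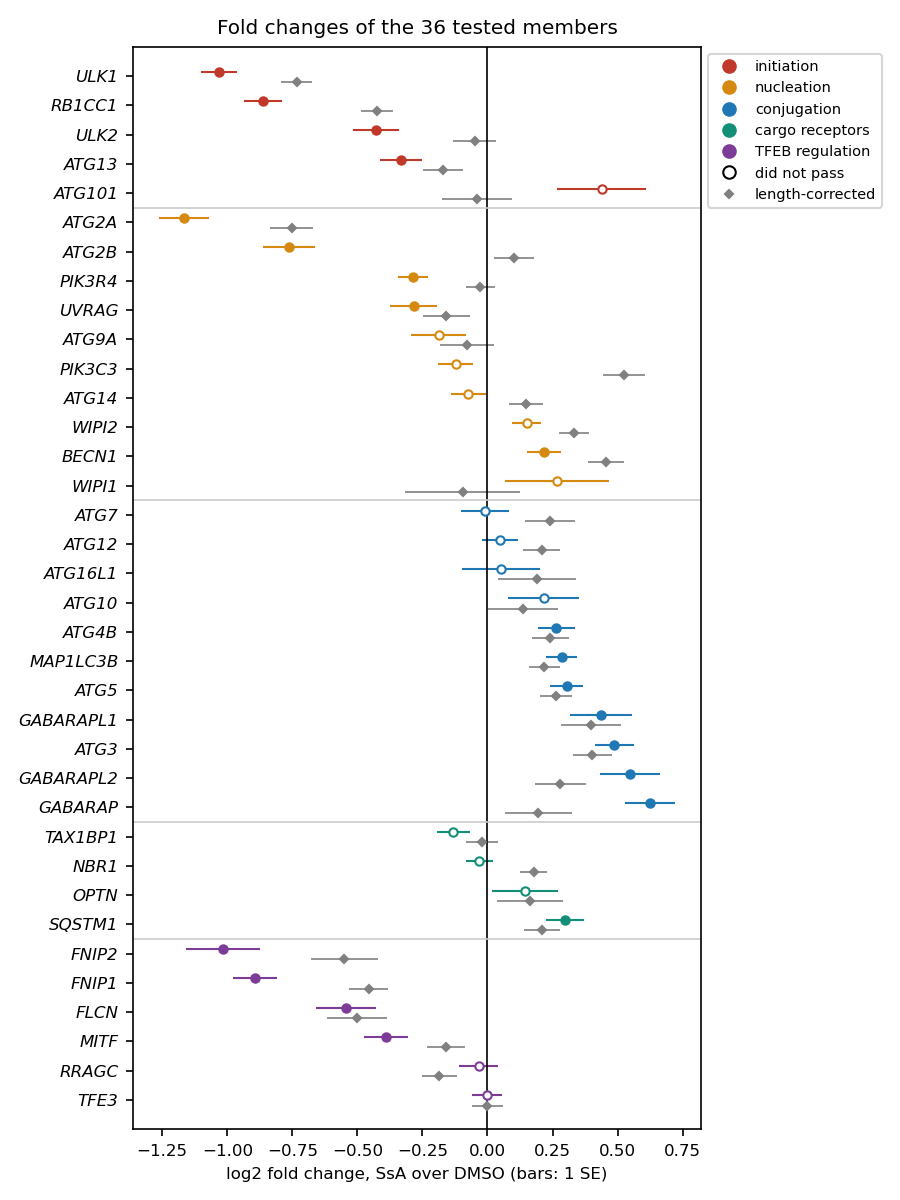
Log2 fold changes of SsA over DMSO (horizontal axis, bars 1 SE) for the 36 tested genes, by step; filled circles passed the edgeR test, open circles did not, and grey diamonds are the values after the correction for transcript length. The circles of ULK1, RB1CC1, ATG2A, FNIP1 and FNIP2 lie left of -0.8, and those of 7 of the 11 conjugation genes are filled and right of 0 on this scale. On the TPM scale 0 of them passed, where 0.429% of all tested genes passed as higher.

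Of the 4 cargo receptor genes 1 rose and 0 fell, against 25.9% and 27.9% of all tested genes. SQSTM1 (ENSG00000161011), whose protein p62 binds ubiquitin and LC3, had 855, 915 and 897 CPM in the SsA libraries, against 714, 767 and 687 CPM in the DMSO libraries. Its groups were separate, but the rise was small at 0.30 ± 0.073 (log2, SE, edgeR adjusted p = 0.0124). The call was lost without SsA replicate 2 (0.0556) or DMSO replicate 1 (0.0596). It was also lost with the length correction (0.058) and with the replicate number as a block (0.0549). On the TPM scale its sign was opposite and it did not pass. NBR1, a receptor that works beside p62, had 163, 163 and 162 CPM in the SsA libraries, against 169, 163 and 168 CPM in the DMSO libraries, and it differed little (log2 fold change -0.031 ± 0.052 SE, edgeR adjusted p = 0.634). OPTN and TAX1BP1, receptors for damaged mitochondria and protein aggregates, averaged 29.6 ± 3.6 CPM with SsA and 26.7 ± 3.38 CPM with DMSO for OPTN and 152 ± 7.12 CPM with SsA and 166 ± 7.32 CPM with DMSO for TAX1BP1 (SD, n = 3). Neither passed (edgeR adjusted p = 0.37 and 0.124), although TAX1BP1 passed as lower without SsA replicate 1 and DMSO replicate 3 (0.00813) and on the deposited FPKM scale (limma adjusted p = 0.022).

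Within the receptors, SQSTM1 made up 73.9 ± 0.842% with SsA and 69 ± 1.58% with DMSO of the summed FPKM of the 4 genes (SD, n = 3), and each SsA library was above each DMSO library. A share within a library does not depend on the scaling between libraries. FPKM is per gene length, but the run of fold changes with transcript length, described further on, was not removed from the share. Transcript length was 2986 nt for SQSTM1, 4656 nt for NBR1 and 4020 nt for TAX1BP1. With the length correction their log2 fold changes were 0.21 ± 0.069, 0.18 ± 0.051 and -0.021 ± 0.061 (SE). The shares of NBR1 (12.1 ± 0.324% with SsA and 14.3 ± 0.731% with DMSO) and TAX1BP1 (10.4 ± 0.742% with SsA and 13.1 ± 1% with DMSO) were lower in each SsA library than in any DMSO library. Among the 4 genes of the LC3 and GABARAP family, GABARAP held 65.1 ± 3.74% with SsA and 61.9 ± 4.14% with DMSO, with overlapping groups. MAP1LC3B held 9.15 ± 0.302% with SsA and 11 ± 0.315% with DMSO (SD, n = 3), lower in each SsA library than in any DMSO library. GABARAP has 1634 nt and MAP1LC3B 3085 nt, and the length correction put them at 0.20 ± 0.13 and 0.22 ± 0.06 (log2, SE). The part of length in these shares was not tested.

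Of the 8 genes around TFEB, 4 fell, 0 rose, 2 did not pass and 2 were not tested, against 27.9% lower and 25.9% higher over all tested genes. One of those that fell, FNIP2, was tested only through its DMSO libraries. By TPM, MITF, FNIP1 and FNIP2 passed as lower, against 21.4% of all tested genes. With the length correction 3 fell, against 15.3%. With the length correction and replicate number together 1 fell, against 948 of 11427 tested genes. TFEB itself was scarce, at 0.305, 0.313 and 0.317 FPKM in the SsA libraries and 0.439, 0.327 and 0.411 FPKM in the DMSO libraries. A fit without the FPKM filter put its log2 fold change at -0.11 ± 0.23 (SE, edgeR adjusted p = 0.779). Its relative TFE3 was far more abundant, at 17.5, 18.8 and 18 FPKM in the SsA libraries and 21.3, 21.5 and 18.3 FPKM in the DMSO libraries, and MITF had 8.34, 9.14 and 8.56 FPKM in the SsA libraries and 12.7, 12.6 and 12.8 FPKM in the DMSO libraries. On the CPM scale TFE3 had 98.4, 93.5 and 90.6 CPM in the SsA libraries, against 94.1, 94.7 and 93.9 CPM in the DMSO libraries, with no visible shift (edgeR adjusted p = 0.992). MITF had 80.9, 78.5 and 74.4 CPM in the SsA libraries, against 96.8, 96.1 and 114 CPM in the DMSO libraries, and it fell (log2 fold change -0.39 ± 0.084 SE, edgeR adjusted p = 0.00751). TFE3 took 66.8 ± 0.249% with SsA and 60.8 ± 2.41% with DMSO of the FPKM of these 3 factors (SD, n = 3), higher in each SsA library than in any DMSO library. TFE3 has 3415 nt and MITF 4814 nt, and with the length correction MITF did not pass (edgeR adjusted p = 0.149). The part of length in this share was not tested.

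The genes of the folliculin complex were lower on the TMM scale. FLCN (ENSG00000154803, chromosome 17, 17212212 to 17237188), the tumour suppressor gene whose product activates RRAGC and RRAGD, had 17, 19.9 and 19.5 CPM in SsA replicates 1, 2 and 3, against 28.3, 30.1 and 23.7 CPM in DMSO replicates 1, 2 and 3. No SsA library reached the lowest DMSO library (log2 fold change -0.54 ± 0.12 SE, edgeR adjusted p = 0.00724). Its call was lost on the TPM scale (limma adjusted p = 0.0695) and with the length correction and replicate number together (edgeR adjusted p = 0.057). FNIP1 (ENSG00000217128, chromosome 5, 131641714 to 131797063), a binding partner of folliculin, had 19.5, 20.2 and 19.3 CPM in SsA replicates 1, 2 and 3, against 34.2, 35.3 and 40.1 CPM in DMSO replicates 1, 2 and 3. The SsA libraries differed by about 1 CPM among themselves and the groups were far apart, at a log2 fold change of -0.89 ± 0.084 (SE, edgeR adjusted p = 2.97e-04). FNIP2, the other partner, had 7.82, 6.77 and 5.97 CPM in the SsA libraries, against 12.7, 13.9 and 15 CPM in the DMSO libraries (log2 fold change -1.02 ± 0.14 SE, edgeR adjusted p = 0.00128). Only its DMSO libraries reached 1 FPKM, so it had to differ to be tested and its p-value adds no support. Its call was lost with the length correction and replicate number together (edgeR adjusted p = 0.078).

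The GTPase genes did not follow. RRAGC had 41.4, 45.6 and 45.6 CPM in the SsA libraries, against 46.5, 46.9 and 42.4 CPM in the DMSO libraries, with overlapping groups (log2 fold change -0.034 ± 0.076 SE, edgeR adjusted p = 0.726). RRAGD, a gene that TFEB is known to activate, was low at 0.706, 0.692 and 0.822 FPKM in the SsA libraries and 0.987, 0.737 and 0.597 FPKM in the DMSO libraries. Its log2 fold change, fitted without the FPKM filter, was 0.17 ± 0.20 (SE, edgeR adjusted p = 0.588).

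**Figure D3:**
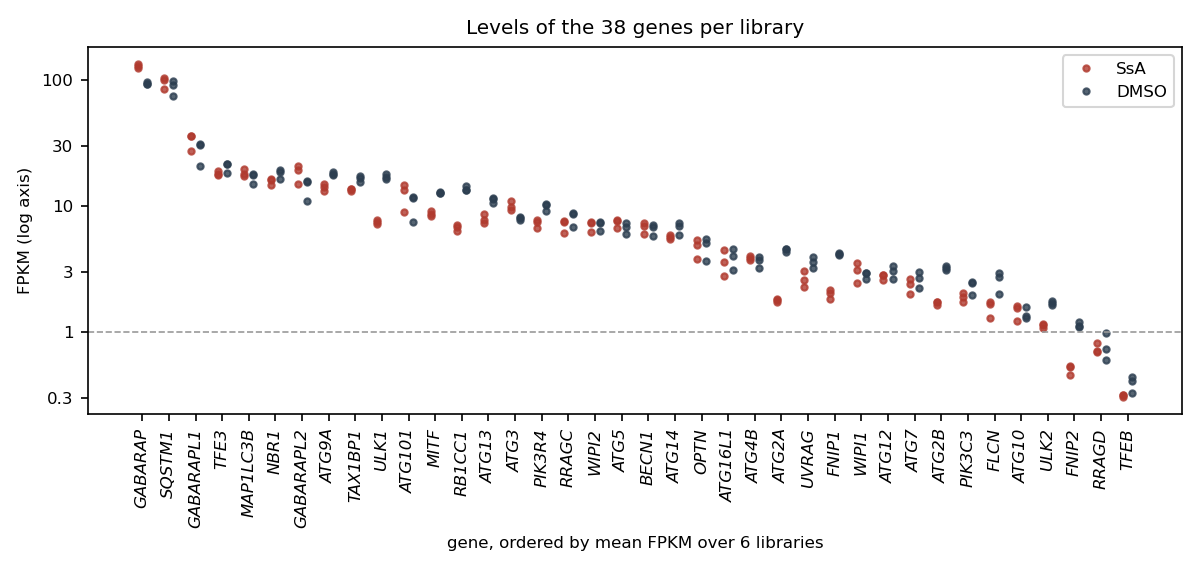
Deposited FPKM (log axis) of the 38 genes in each library, ordered by the mean over the 6 libraries, with SsA left of DMSO for each gene and a dashed line at 1 FPKM. GABARAP and SQSTM1 were the highest and RRAGD and TFEB the lowest, and ULK1, RB1CC1, ATG2A and FNIP1 are places where the groups part widely.

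Levels per length spanned a wide range. GABARAP had 129 ± 5.03 FPKM with SsA and 93.9 ± 1.25 FPKM with DMSO and SQSTM1 95.8 ± 9.48 FPKM with SsA and 87.4 ± 11.5 FPKM with DMSO (SD, n = 3), the 2 highest by mean over all libraries. GABARAPL1 was next at 33 ± 5.1 FPKM with SsA and 27.4 ± 5.88 FPKM with DMSO. At the low end of the tested genes stood ULK2 at 1.12 ± 0.0495 FPKM with SsA and 1.69 ± 0.0595 FPKM with DMSO and FNIP2 at 0.503 ± 0.0433 FPKM with SsA and 1.14 ± 0.0573 FPKM with DMSO. ULK1 was at 7.45 ± 0.242 FPKM with SsA and 17.1 ± 0.684 FPKM with DMSO, so its level remained several times that of ULK2 in both groups.

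Ratios between paralogues in the same library do not depend on the scaling between libraries, but they were not adjusted for transcript length. Such ratios were compared for 10 pairs. With 3 libraries against 3 the smallest two-sided exact permutation p is 0.1, and Benjamini-Hochberg adjustment over the 10 pairs gives 0.25, so no pair could pass. The log2 ratio of ULK1 to ULK2 counts was 2.38, 2.39 and 2.31 in the SsA libraries, against 2.98, 2.94 and 2.97 in the DMSO libraries. Its groups did not overlap, and the difference was -0.60 ± 0.028 (SE, exact permutation p = 0.1). For ATG2A to ATG2B the log2 ratio was -0.79, -0.79 and -0.81 in the SsA libraries, against -0.43, -0.31 and -0.42 in the DMSO libraries, a difference of -0.41 ± 0.039 (SE, exact permutation p = 0.1) and again without overlap. For MITF to TFE3 it was -0.28, -0.25 and -0.28 in the SsA libraries, against 0.041, 0.021 and 0.28 in the DMSO libraries, a difference of -0.39 ± 0.083 (SE, exact permutation p = 0.1). GABARAPL1 to GABARAPL2 also separated, by a smaller -0.11 ± 0.034 (SE, exact permutation p = 0.1). In the other 6 pairs the groups overlapped, among them FNIP2 to FNIP1, with a difference of -0.13 ± 0.11 (SE, exact permutation p = 0.4).

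**Figure D4:**
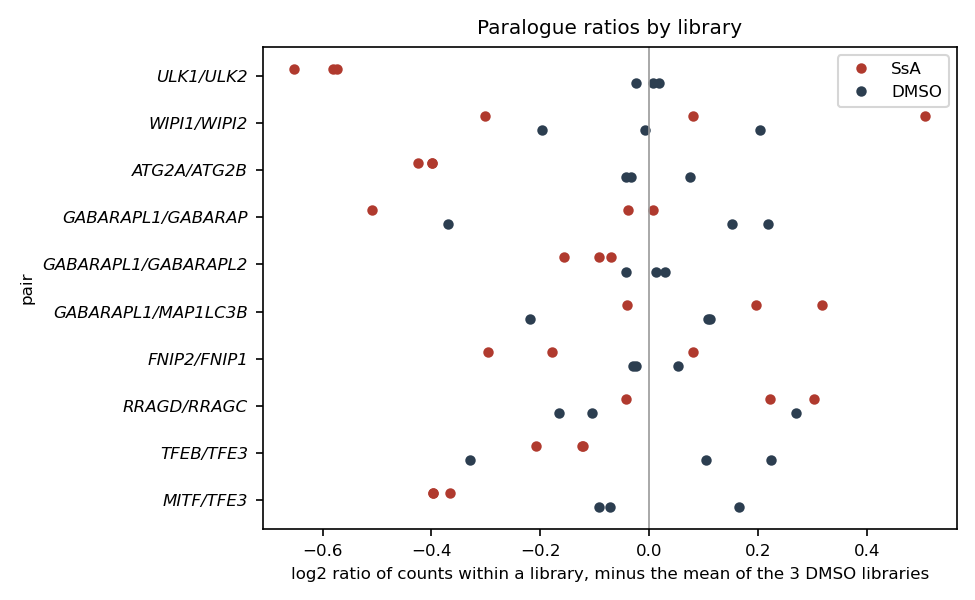
Log2 ratio of the counts of 2 paralogues within each library, minus the mean of the 3 DMSO libraries (horizontal axis), for 10 pairs (rows), with SsA above DMSO in each row. The SsA points of ULK1/ULK2, ATG2A/ATG2B and MITF/TFE3 lie left of all their DMSO points, and those of WIPI1/WIPI2 straddle them.

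The fold changes of these genes ran with transcript length, as they did over all tested genes. Across the 36 genes, which are not independent replicates and share the same libraries, the Spearman correlation of log2 fold change with the length of the longest GENCODE 29 transcript was -0.81, and over 11382 tested genes it was -0.64. Of the 15 genes under 4000 nt, 8 rose and 1, FLCN, fell. Of the 19 genes of 4000 to under 8000 nt, 1, BECN1, rose and 10 fell, with a median of -0.28, against a median of -0.30 and quartiles of -0.58 and -0.027 over 3688 tested genes of that length. ULK1 (5310 nt), ATG2A (6357 nt), RB1CC1 (6635 nt), FNIP1 (6589 nt) and FNIP2 (6925 nt) lay below the lower of these quartiles. FLCN (3638 nt) lay below the lower quartile of -0.11 of genes of 2000 to under 4000 nt. ATG3, GABARAPL1 and GABARAPL2 lay above the upper quartile of 0.34 of that class, whereas GABARAP (1634 nt) lay between the quartiles of 0.23 and 0.74 of genes under 2000 nt. Pairs whose ratios did not overlap between the groups went both ways by length. In ULK1 and ULK2 (6010 nt) and in ATG2A and ATG2B (13684 nt), the gene with the shorter transcript fell more. In MITF (4814 nt) and TFE3 (3415 nt) the gene with the longer transcript fell more. GABARAPL1 (3214 nt) rose less than GABARAPL2 (2274 nt).

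**Figure D5:**
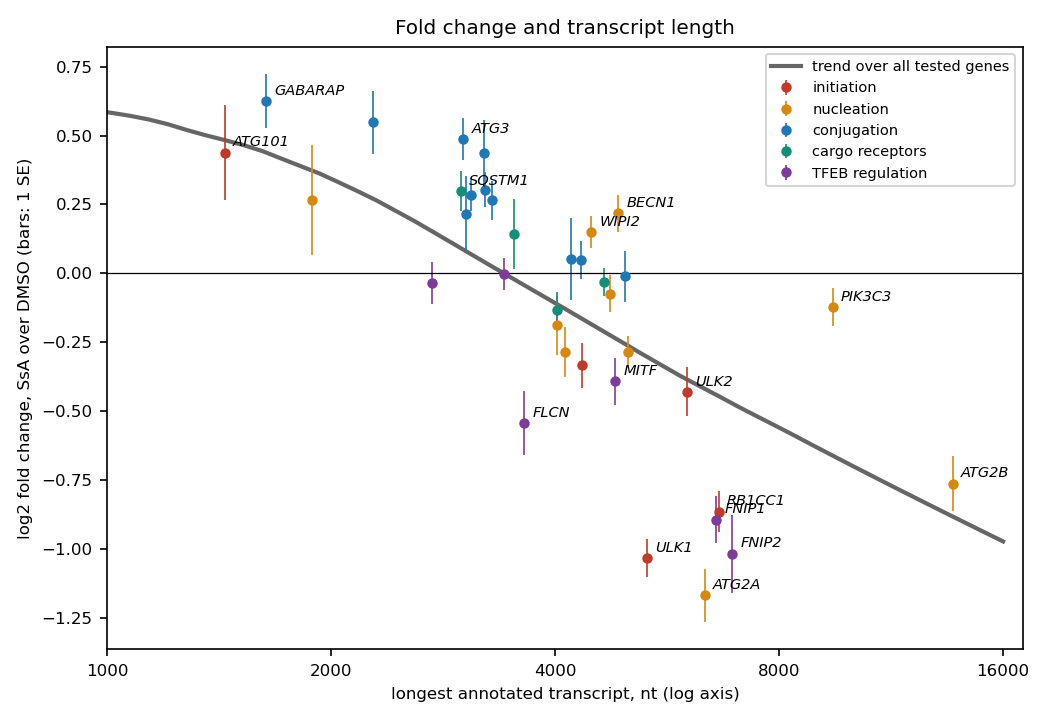
Log2 fold change of SsA over DMSO (vertical axis, bars 1 SE) against the longest annotated transcript (log axis, nt) for the 36 tested genes, coloured by step, with the smoothed trend over all tested genes in grey. ULK1, ATG2A, RB1CC1, FNIP1, FNIP2 and FLCN lie well below the trend, and PIK3C3, BECN1 and WIPI2 lie above it.

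With a trend against length removed from each library, 9 of the 36 genes were higher and 6 lower, against a background of 15.7% higher and 15.3% lower. The 6 lower genes were ULK1 (-0.73 ± 0.06), ATG2A (-0.75 ± 0.082), FNIP2 (-0.55 ± 0.13), FLCN (-0.50 ± 0.12), FNIP1 (-0.46 ± 0.074) and RB1CC1 (-0.42 ± 0.061; log2, SE), with edgeR adjusted p from 5.28e-04 for ULK1 to 0.0181 for FNIP2. All 6 were also lower without the correction, and FNIP2 was tested only through its DMSO libraries. The falls of ULK2, ATG13, UVRAG, PIK3R4, ATG2B and MITF no longer passed, and that of ATG2B ended at 0.10 ± 0.076 (edgeR adjusted p = 0.341). Of the 9 genes that rose without the correction, BECN1, ATG3, ATG4B, ATG5, MAP1LC3B and GABARAPL1 still rose, while GABARAP (0.20 ± 0.13, edgeR adjusted p = 0.287), GABARAPL2 (0.28 ± 0.10, 0.0691) and SQSTM1 (0.21 ± 0.069, 0.058) did not pass. PIK3C3 (0.53 ± 0.08, edgeR adjusted p = 0.0035), WIPI2 (0.33 ± 0.058, 0.0061) and NBR1 (0.18 ± 0.051, 0.0357) passed as higher only with the correction. The correction removes any difference that runs with length, and whether that difference belongs to the treatment was not tested.

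Other genes of the pathway were taken from lists chosen with earlier results of these data known. Of 14 tested genes of the remaining core machinery, 4 rose and 4 fell, with a median of 0.19, against 25.9% higher, 27.9% lower and a median of 0.027 over all tested genes. VMP1, an endoplasmic reticulum protein that lets the membrane detach, had 245, 261 and 270.2 CPM in the SsA libraries, against 161, 149 and 143 CPM in the DMSO libraries, and it rose by 0.78 ± 0.07 (log2, SE, edgeR adjusted p = 2.64e-04). AMBRA1, which links ULK1 and BECN1, had 22.9, 27.8 and 24.3 CPM in the SsA libraries, against 45.6, 44.4 and 46.5 CPM in the DMSO libraries, with a log2 fold change of -0.86 ± 0.087 (SE, edgeR adjusted p = 3.71e-04). Both calls held with the length correction, whereas the falls of EPG5 and RUBCN did not. Around TFEB at the lysosome, 6 of 16 tested genes rose and 3 fell, with a median of 0.22. RPTOR, the mTORC1 subunit that binds its substrates, had 40, 38.7 and 39.6 CPM in the SsA libraries, against 87, 81 and 90.3 CPM in the DMSO libraries, and it fell by the most, with a log2 fold change of -1.13 ± 0.066 (SE, edgeR adjusted p = 7.60e-05). MTOR fell too (log2 fold change -0.78 ± 0.067 SE), and RRAGA, the partner GTPase of RRAGC and RRAGD, and LAMTOR1, of the complex that anchors them, rose by 0.52 ± 0.10 and 0.39 ± 0.062 (log2, SE). With the length correction RPTOR passed as lower at -0.71 ± 0.059 and MTOR at a much smaller -0.18 ± 0.055 (log2, SE; edgeR adjusted p = 5.29e-04 and 0.0456), and RRAGA and LAMTOR1 did not pass. By TPM 0 genes of either list rose, and 4 of the core machinery and 2 around TFEB fell, against 0.429% higher and 21.4% lower over all tested genes.

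Among 27 tested lysosomal and related genes of the CLEAR network, which TFEB and TFE3 activate through an E-box, 14 rose and 3 fell, with a median of 0.31, against 25.9%, 27.9% and 0.027 over all tested genes. Without DMSO replicate 2, 9 rose, against 2438 of all 11427 tested genes. With the length correction 9 rose and 1 fell, against 15.7% and 15.3%, and on the TPM scale 0 rose and 2 fell, against 0.429% and 21.4%. NEU1, a lysosomal sialidase gene, had 51.8, 57.4 and 56.1 CPM in the SsA libraries, against 30.8, 34.3 and 30.2 CPM in the DMSO libraries, with a log2 fold change of 0.79 ± 0.08 (SE, edgeR adjusted p = 3.73e-04), which the length correction left at 0.997 ± 0.084. The enzyme gene GLA and the proton pump gene ATP6V0E1 rose by 0.67 ± 0.068 and 0.68 ± 0.08 (log2, SE). With the length correction GLA did not pass (0.19 ± 0.072, edgeR adjusted p = 0.0824) and ATP6V0E1 was at 0.20 ± 0.054 (edgeR adjusted p = 0.031). SGSH, a heparan sulfate sulfatase gene, fell (log2 fold change -0.80 ± 0.10 SE, edgeR adjusted p = 9.70e-04). The length correction left SGSH at -0.47 ± 0.094 (edgeR adjusted p = 0.0098).

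Promoter windows from RefSeq (GRCh38.p14), from 250 bases before to 50 after each annotated start, were matched by symbol for 35 of the 38 genes, with 47 windows. They were searched on both strands for the E-box CACGTG that TFEB, TFE3 and MITF bind. It was present in 4 windows, those of ATG3, ATG14, FNIP1 and RRAGC, or 8.51% of 47, against 7.26% of all 35116 windows and 9.69% of the 12170 windows of tested genes. In the same 4 windows a T preceded it on 1 strand at least (TCACGTG, which contains the E-box), found in 3.71% of all windows and 5.6% of those of tested genes. The upstream parts of these windows are shown because they are the E-boxes among the 38 genes. They are written 5′ to 3′ on the gene's strand, with TCACGTG, or CACGTGA where it reads on the other strand, in capitals.
ATG3, chr3:112561963-112562001, minus strand: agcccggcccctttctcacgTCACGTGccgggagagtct
ATG14, chr14:55411831-55411871, minus strand: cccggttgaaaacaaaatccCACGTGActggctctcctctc
FNIP1, chr5:131797085-131797212, minus strand: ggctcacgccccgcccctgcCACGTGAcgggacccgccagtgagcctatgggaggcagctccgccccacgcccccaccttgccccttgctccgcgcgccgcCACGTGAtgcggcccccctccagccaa
RRAGC, chr1:38859858-38859904, minus strand: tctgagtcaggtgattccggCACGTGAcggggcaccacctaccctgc
FNIP1 carried the motif in 2 places, starting 175 and 94 bases before the start, and ATG3 carried it 19 bases before the start and again just inside the transcript. These 4 genes did not move together, since ATG3 rose, FNIP1 fell, and ATG14 and RRAGC did not pass.

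Motifs of other factors were searched in the same way. The AP-1 site TGANTCA was in 3 windows, of FNIP2, RRAGC and TFE3 (6.38%, against 7.71% of all windows and 4.82% of those of tested genes). The antioxidant response element TGACNNNGC was in 4 windows, of ATG101, FNIP2, MAP1LC3B and RRAGC (8.51%, against 13.3% and 14.7%). The C/EBP-ATF composite element TGATGNAA was in 0 of the 47 windows, against 3.62% of all windows and 1.81% of those of tested genes. A match of letters describes the window and does not show that a factor binds there, and no match says only that these letters are not in it.

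Neighbouring genes make some values uncertain. In GENCODE 29 ATG9A, FLCN, FNIP1, GABARAP and RRAGC share exon sequence with another annotated gene on the same strand, over 38.8%, 11.9%, 3.54%, 30.5% and 22.9% of their exon bases. None of those neighbours had a row of its own in the deposited table. Exons of a gene on the opposite strand covered 25.2% of GABARAP, 24.3% of WIPI1, 20.7% of SQSTM1, 19.2% of ATG101 and 18.1% of ATG7, and whether the counting used strand is not stated.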

How the data were processed

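Per the labels' protocols, polyadenylated RNA was selected and strand-marking dUTP libraries were made. The submitters' processing notes name GRCh38, StringTie 1.3.4d, HISAT2 2.0.4 and cutadapt 1.9. How these were set, the annotation, the strand setting and the counting step were not given in those notes or the labels. In the deposited table stood 29435 genes with whole-number counts and FPKM values per library, both made by the authors, per the file headers. The column prefix SA was taken to mean saikosaponin A.

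The 38 genes, the lists and the tests were chosen with earlier results of these data known. Each of the 38 genes is reported, and from each further list up to 4 genes of smallest p were named. The 11427 genes with at least 1 FPKM in at least 3 libraries were tested with edgeR 4.0.16 on TMM-scaled counts (quasi-likelihood test, R 4.3.3, Benjamini-Hochberg threshold 0.05). An SE is the size of the log2 fold change over the square root of edgeR's F. The biological coefficient of variation was 15.3%. For the length correction, a loess trend (span 0.5) of each library's log2 CPM (prior count 2), relative to the gene mean, against log2 transcript length was used as an offset. Alternatives used DESeq2 1.42.0 and limma 3.58.1 on log2(FPKM + 1), log2(FPKM + 0.1) and log2(TPM + 1), other filters, and fits without single libraries. Fold changes on such a scale understate changes of low genes. In simulated counts a trend against length was put on every gene in the SsA libraries, and some genes were changed beyond it. Most calls of the fit without the length correction were genes with the trend alone, and few were with it. The simulated trend is of the kind that the correction removes, so this outcome was set in advance. It does not show whether the trend in these data belongs to the treatment.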

Additional observations from a re-analysis of the deposited data

How the results depend on the processing

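Against 9 members higher and 12 lower, other scalings gave 2 higher on log2(FPKM + 1) and 2 on log2(FPKM + 0.1), and 0 higher and 7 lower on log2(TPM + 1). At a mean of at least 5 FPKM fewer genes were tested. There 5 of 21 tested members were higher and 7 lower, against 1666 and 1762 of 6197 genes. The length correction left 6 lower. Over all tested genes, 2956 were higher and 3190 lower. The count of higher genes was 914 on log2(FPKM + 1), 49 on log2(TPM + 1), 886 on log2(FPKM + 0.1), 1666 higher with 1762 lower at a mean FPKM of at least 5, and 1791 higher with 1747 lower after the length correction. With DESeq2 11 members were higher and 12 lower, against 3334 and 3423 of 11427 tested genes. Without single libraries 6 to 11 members were higher and 11 or 12 lower, against 2005 to 3153 and 2594 to 3249 genes. Without SsA replicate 1 and DMSO replicate 3 together, 11 members were higher and 15 lower, against 3801 and 3946 genes. ULK1, RB1CC1, ATG2A and FNIP1 passed as lower under each alternative in which they were tested. Among named genes that passed in edgeR on TMM-scaled counts or under the alternative, signs turned on log2(TPM + 1) for BECN1 (-0.14), ATG4B (-0.093), ATG5 (-0.057), MAP1LC3B (-0.078), SQSTM1 (-0.065) and RTN3 (-0.018). With the length correction they turned for PIK3C3 (0.53), ATG2B (0.10), NBR1 (0.18), FUNDC1 (-0.012) and LAMTOR1 (-0.10). Signs of genes that passed in neither are not listed. Of 27 CLEAR genes 14 rose, 9 to 15 without single libraries and 9 with the replicate number as a block. Over all 11427 tested genes 2956, 2005 to 3153 and 2074 were higher in those fits. The cause was not tested.

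Between libraries of equal number, deviations from the group means correlated at -0.34, 0.29 and -0.35 for numbers 1, 2 and 3. SsA replicate 1 was closest to DMSO replicate 3 (0.55), both of high mitochondrial share. With 3 libraries per group these values cannot tell whether equal numbers mark a shared culture or day. With the replicate number as a block, 6 members were higher and 11 lower, against 2074 and 2542 of 11427 tested genes. With the block and the length correction, 4 members were higher and 4 lower, and 920 and 948 of all genes; PIK3C3 (0.53), ATG2B (0.11), FUNDC1 (-0.011) and LAMTOR1 (-0.10) had turned sign there too. The replicates number 3 per group, and TFEB and RRAGD lay too low for the test.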

Other observations

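Beyond the 38 genes, further receptors of selective autophagy changed in places. Of 20 tested, 6 rose and 1 fell, with a median of 0.039, against 25.9% and 27.9% of all tested genes. RTN3, a receptor for endoplasmic reticulum tubules, had 309.6, 315 and 313 CPM in the SsA libraries, against 244, 250.5 and 244 CPM in the DMSO libraries, and it rose by 0.35 ± 0.053 (log2, SE, edgeR adjusted p = 0.00189), a rise that the length correction left at 0.59 ± 0.054 and that was -0.018 on the TPM scale. The mitochondrial receptor genes PHB2 and FUNDC1 rose by 0.59 ± 0.069 and 0.52 ± 0.094 (log2, SE) and did not pass after the length correction. WDFY3, a very long scaffold gene for protein aggregates, fell (log2 fold change -1.17 ± 0.10 SE, edgeR adjusted p = 2.43e-04). The length correction left it at -0.28 ± 0.087 (edgeR adjusted p = 0.0445).

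Of 13 tested genes for fusion of autophagosomes with lysosomes, 5 fell and 1 rose, with a median of -0.040, against 27.9%, 25.9% and a median of 0.027 over all tested genes. PLEKHM1, an adaptor of that fusion, had 7.82, 7.22 and 7.9 CPM in the SsA libraries, against 14.7, 13.8 and 15.2 CPM in the DMSO libraries, with a log2 fold change of -0.93 ± 0.11 (SE, edgeR adjusted p = 6.05e-04). VPS39 and VPS18, subunits of the HOPS tethering complex, fell with log2 fold changes of -0.65 ± 0.065 and -0.60 ± 0.087 (SE). These 3 falls passed with the length correction as well. VAMP8, the SNARE of lysosomes and endosomes with a short transcript, rose by 0.93 ± 0.17 (log2, SE, edgeR adjusted p = 0.00406) and did not pass after the length correction (0.35 ± 0.13, edgeR adjusted p = 0.0886). On the TPM scale 0 genes of either list rose, and 1 of the receptors and 4 of the fusion genes fell, against 0.429% higher and 21.4% lower over all tested genes.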
